A study of Mus musculus with 27 samples.

Results

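Collagens are the genes whose symbols read Col, a number, a and a number. Of 51906 gene symbols in the RNA-seq table and 32285 genes in the single cell matrices, 43 fitted that rule in each, without Col17a1. Collagen chains assemble in trimers. Fibrillar chains (types I, III and V) form the fibres of dermis, type IV chains form the sheet of the basement membrane under epithelia, type VII anchors that sheet to the dermis, and types XV and XVIII are carried in basement membrane zones. In skin, fibroblasts are known as the main source of fibrillar collagen and keratinocytes of type VII.

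The data came from mouse hair follicle stem cells (HFSCs) and skin. Bulk RNA-seq covered 3D HFSC cultures from 2 wild-type and 2 Rxra cKO mice (Sox9-CreER, Rxra fl/fl, R26-YFP) at postnatal day 55, each grown with fetal bovine serum (FBS) or in serum-free B-27 medium with all-trans retinoic acid and a PKC inhibitor (atRA+PKCi), so that the medium effect covers all of these changes. Library totals lay between 25150162 and 35879630 estimated counts. Single cell matrices covered back skin in full hair growth (anagen) from 2 mice at postnatal day 32 and 7 tagged cultures of HFSCs from the same 2 mice. One was grown in FBS, one in B-27 alone and one in atRA+PKCi. The others had atRA+PKCi with the Wnt agonist Rspo, with the growth factors BMP2 and BMP4 (named BMP2/4), with Rspo+BMP2/4, or with Rspo+BMP2/4 and RARi, an inhibitor of retinoic acid receptors. The labels say of each replicate only that it came from mouse 1 or 2, with the same numbers in both media of a genotype. HFSC lines were founded on inactivated feeder cells. Krt14, a basal keratinocyte keratin, stood at 5718 to 22350 CPM (counts scaled to equal library totals) in every bulk library. The fibroblast gene Lum had 0 counts in all 8, while other genes of the fibroblast list given below had counts.

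The targeted gene was checked first. Rxra stood at 149 and 122 CPM in wild-type FBS, 147 and 143 CPM in wild-type atRA+PKCi, 97.2 and 95.7 CPM in the libraries labelled Rxra cKO in FBS, and 148 and 145 CPM in those in atRA+PKCi. Its log2 fold change between genotypes was -0.49 ± 0.09 (SE, 2 libraries each; edgeR quasi-likelihood adjusted p = 0.00264) in FBS and 0.01 ± 0.09 (adjusted p = 0.927) in atRA+PKCi. Whole-gene counts do not show the deleted part of the gene, so the libraries are named here by their labels, and every direction between genotypes rests on those labels.

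Of the 43 collagens, 23 had a mean of at least 1 CPM in some group, 10 reached 10 CPM, and 1, Col9a1, had no count in any library. They took 0.0916% to 0.141% of all counts. Col18a1, the chain of a basement membrane proteoglycan, made up 42.1% to 60.0% of that sum. Per kilobase of exon it stood at 81.5 CPM in wild-type FBS, against 33.0 for Col7a1, 18.5 for Col4a1 and 16.1 for Col4a2. Col1a1, Col1a2 and Col3a1, the fibroblast fibre chains, together reached 0.577 to 5.51 CPM. The fibroblast list (Pdgfra, Pdgfrb, Dcn, Lum, Thy1, Twist1, Prrx1, Fbn1, Dpt and Mfap5) summed to 5.70 to 12.7 CPM. Its part in these levels was not tested.

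**Figure D1:**
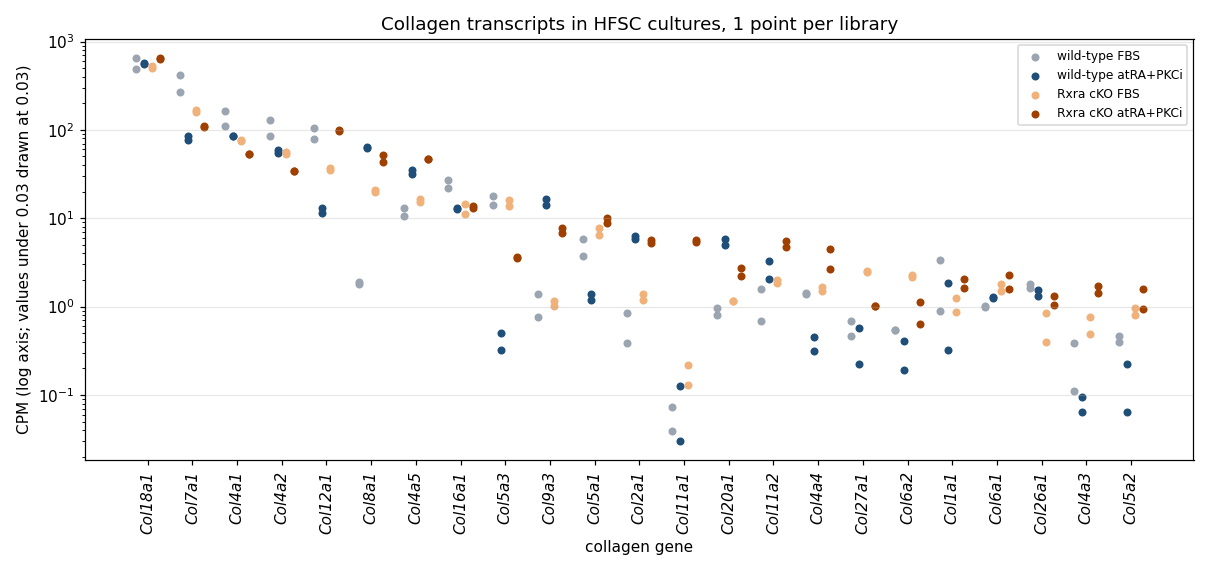
CPM (log axis) of the 23 collagens with a mean of at least 1 CPM in a group, ordered by their highest group mean, with 1 point for each of 8 libraries colored by genotype and medium. Col18a1 lies between 494 and 643 CPM in all but 1 library, which is at 650, while Col5a3, Col8a1 and Col12a1 spread over a wide range.

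Several type IV genes lie in pairs that start at almost the same place and are read in opposite directions. Col4a1 and Col4a2 (chromosome 8, GRCm38) overlap by 22 bases at their starts, Col4a4 and Col4a3 (chromosome 1) lie 71 bases apart, and Col4a6 and Col4a5 (chromosome X) 1308. The stretch between Col4a4 and Col4a3 and the bases upstream of 3 collagens with large or shared changes are shown, from RefSeq promoter windows on GRCm38.p6, each on the strand of the gene named. Capitals mark GGGCGG or CCGCCC, the GC box, and AGGTCA or TGACCT, the core site bound by nuclear receptors.
Col4a4 to Col4a3, chr1:82586850-82586920, minus strand: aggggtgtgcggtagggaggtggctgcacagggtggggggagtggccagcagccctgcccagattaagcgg
Col4a5, chrX:141475169-141475384, plus strand: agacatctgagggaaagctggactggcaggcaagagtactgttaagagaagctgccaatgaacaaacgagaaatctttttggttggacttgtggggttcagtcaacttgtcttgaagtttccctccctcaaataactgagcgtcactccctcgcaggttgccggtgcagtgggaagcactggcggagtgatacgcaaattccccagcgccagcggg
Col5a3, chr9:20815068-20815317, minus strand: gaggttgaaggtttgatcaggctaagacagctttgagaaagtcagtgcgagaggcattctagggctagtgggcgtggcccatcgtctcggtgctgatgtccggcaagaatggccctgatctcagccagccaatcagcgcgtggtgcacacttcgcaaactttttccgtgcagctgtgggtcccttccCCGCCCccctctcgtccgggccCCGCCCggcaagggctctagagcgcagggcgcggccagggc
Col8a1, chr16:57754738-57754987, minus strand: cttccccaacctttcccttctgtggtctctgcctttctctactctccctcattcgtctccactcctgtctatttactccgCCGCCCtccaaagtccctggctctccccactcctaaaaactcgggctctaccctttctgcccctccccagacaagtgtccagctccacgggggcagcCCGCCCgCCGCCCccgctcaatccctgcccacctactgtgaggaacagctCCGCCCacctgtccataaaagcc

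The GC box was matched 2 times before Col5a3 and 4 times before Col8a1, and AGGTCA was matched in none of the 4 stretches. Those of Col4a4 and Col4a5 were cut to 71 and 216 bases. Over 250 bases, Col4a4 held 1 AGGTCA and Col4a5 held 1 GC box. In 250 bases upstream of a start, 32.7% of all 32851 windows held the GC box and 14.0% held AGGTCA on either strand. Among 37 windows of 34 collagens with an entry, 22 held the GC box and 8 held AGGTCA.

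In wild-type HFSCs, the change from FBS to atRA+PKCi moved the collagens apart. Of the 30 that passed the filter on low counts, 8 rose and 8 fell, against 27.2% and 26.6% of all 15965 genes, so the counts were those of the background. Their median log2 fold change was -0.72, against 0.03 over all genes. Col8a1, a chain of the hexagonal networks of vessel and eye basement membranes, stood at 1.79 and 1.89 CPM in FBS and 64.1 and 63.0 CPM in atRA+PKCi. Its log2 fold change was 5.11 ± 0.12 (SE, 2 libraries each; edgeR adjusted p = 1.38e-08). Col5a3, a fibrillar chain, moved the other way, from 17.7 and 14.3 CPM to 0.321 and 0.507 CPM (-5.26 ± 0.22, adjusted p = 2.09e-07). In both genes the groups did not overlap.

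Among fibrillar chains tested, 2 of 10 rose and 2 fell. Col2a1, known from cartilage, rose from 0.839 and 0.386 CPM to 6.32 and 5.83 CPM (log2 3.29 ± 0.30, edgeR adjusted p = 2.63e-05), and Col5a1 fell from 5.80 and 3.71 CPM to 1.19 and 1.39 CPM (-1.88 ± 0.25, adjusted p = 0.000249). Col1a1 was at 3.36 and 0.889 CPM in FBS and 0.321 and 1.87 CPM in atRA+PKCi. Its groups overlapped (-0.96 ± 0.75, edgeR adjusted p = 0.318). Of the fibroblast list, Dcn, Prrx1 and Pdgfra fell by 4.66, 3.18 and 2.91 and Twist1 rose by 0.54 on the log2 scale, and their part in the fibrillar values was not tested. Of the 6 type IV chains, 2 rose and 3 fell. Col4a5 rose from 13.0 and 10.7 CPM to 35.2 and 31.8 CPM (1.49 ± 0.11, adjusted p = 5.37e-06), whereas the pair Col4a1 and Col4a2, the common chains of most basement membranes, fell by 0.70 and 0.89 on the log2 scale (adjusted p = 0.00385 and 0.00174). Without replicate 1 of wild-type FBS these values were -0.39 and -0.56 and were still called. Col4a6 had 0 counts in FBS and 19 in atRA+PKCi, at least 5.38-fold higher against a floor of 3 counts over the group.

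Col7a1, the anchoring fibril, fell from 413 and 267 CPM to 77.4 and 84.5 CPM (log2 -2.07 ± 0.17, edgeR adjusted p = 1.54e-05). Of 5 tested FACITs, collagens that sit on the surface of fibres or basement membranes, 3 rose and 2 fell. Col12a1 fell from 104 and 78.2 CPM to 11.5 and 12.9 CPM (-2.90 ± 0.14, adjusted p = 4.49e-07), and Col16a1 from 26.8 and 21.7 CPM to 12.7 and 13.1 CPM (-0.91 ± 0.14, adjusted p = 0.000709). Col9a3 rose from 1.39 and 0.773 CPM to 16.4 and 14.3 CPM (3.82 ± 0.24, adjusted p = 2.16e-06), and Col20a1 from 0.803 and 0.966 CPM to 5.00 and 5.86 CPM (2.61 ± 0.24, adjusted p = 2.39e-05). Col14a1 had 0 counts in FBS and 14 in atRA+PKCi, at least 3.96-fold higher, and its call was lost without replicate 1 of wild-type FBS (adjusted p = 0.0520) and without replicate 2 of wild-type atRA+PKCi (adjusted p = 0.0703). Col18a1 was 650 and 494 CPM against 571 and 561 CPM (-0.02 ± 0.12, adjusted p = 0.922).

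Replicate 1 of wild-type FBS carried 1544 CPM of collagens against 1100 CPM in replicate 2, the widest gap within a group. Without it, Col1a1 and Col18a1 changed sign to 0.30 and 0.19 (edgeR adjusted p = 0.799 and 0.0695).

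In the libraries labelled Rxra cKO the same change of medium was followed by 12 rises and 6 falls among the 30 tested, against 20.8% and 22.2% of all genes, with a median log2 fold change of 0.76 against 0.02. Col11a1, a minor fibrillar chain, went from 0.216 and 0.130 CPM to 5.32 and 5.66 CPM (4.97 ± 0.54, edgeR adjusted p = 0.000127). Col12a1 rose from 34.8 and 36.9 CPM to 100.3 and 98.3 CPM (1.47 ± 0.13, adjusted p = 3.23e-05), and Col5a3 fell from 13.7 and 16.0 CPM to 3.61 and 3.58 CPM (-2.05 ± 0.17, adjusted p = 2.42e-05). Col9a3 (2.77 ± 0.24), Col2a1 (2.07 ± 0.27), Col4a5 (1.56 ± 0.10) and Col8a1 (1.23 ± 0.09) rose. Col4a1, Col4a2, Col7a1, Col6a2 and Col27a1 fell by 0.51 to 1.37 on the log2 scale (adjusted p = 0.0110 to 0.0245). With replicate 1 of Rxra cKO FBS or replicate 2 of Rxra cKO atRA+PKCi left out, 2 of the 6 falls were called, and with replicate 2 of FBS or replicate 1 of atRA+PKCi left out, 1. Col14a1 had 0 counts in FBS and 51 in atRA+PKCi, at least 15.3-fold higher.

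**Figure D2:**
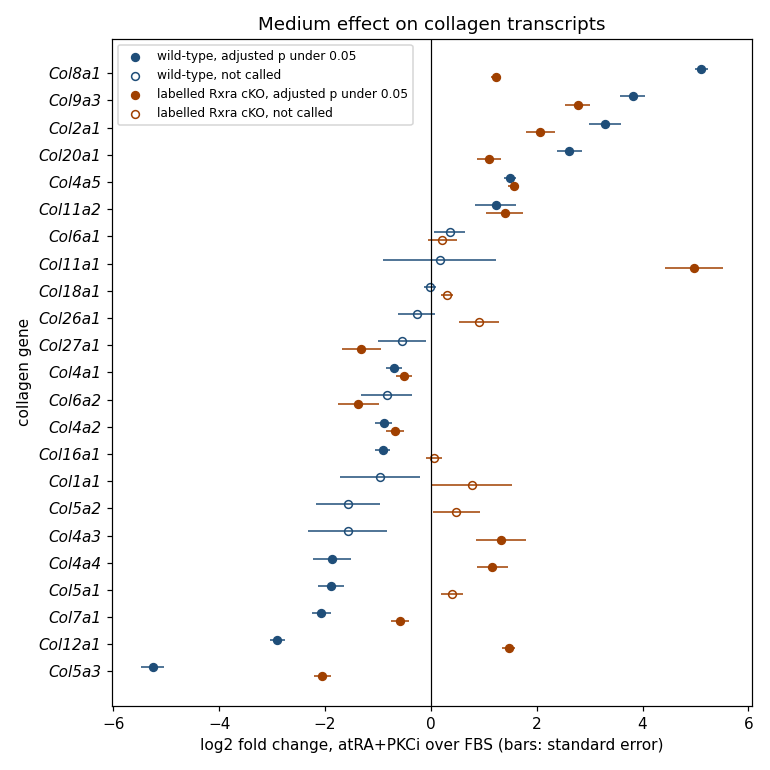
Log2 fold change from FBS to atRA+PKCi with its standard error for 23 collagens, in wild-type (blue) and in libraries labelled Rxra cKO (brown), with filled points for adjusted p under 0.05. Col12a1 and Col4a4 lie on opposite sides of 0, and Col8a1 and Col5a3 lie farther from 0 in wild-type.

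The difference between these medium effects, wild-type minus Rxra cKO, was tested as an interaction. It was called higher for 2 collagens and lower for 8 of 30, against 11.3% and 13.3% of all genes. Col12a1 differed in direction, falling in wild-type and rising in Rxra cKO (interaction -4.37 ± 0.19, edgeR adjusted p = 3.15e-06). Col8a1 rose more in wild-type (3.88 ± 0.16, adjusted p = 2.59e-06), as did Col20a1 (1.52 ± 0.33, adjusted p = 0.0106). Col5a3 (-3.21 ± 0.29, adjusted p = 0.000118) and Col7a1 (-1.49 ± 0.24, adjusted p = 0.00245) fell more in wild-type. Col5a1 and Col16a1 fell in wild-type, while in Rxra cKO they stood at 0.39 ± 0.21 and 0.06 ± 0.15 (interaction -2.27 and -0.97, adjusted p = 0.00139 and 0.00928).

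The neighbours Col4a3 and Col4a4, chains of the kidney glomerular and other specialised basement membranes, both had an interaction below 0. Col4a4 stood at 1.39 and 1.43 CPM in wild-type FBS, 0.449 and 0.317 CPM in wild-type atRA+PKCi, 1.51 and 1.65 CPM in Rxra cKO FBS and 2.70 and 4.43 CPM in Rxra cKO atRA+PKCi (interaction -3.03 ± 0.47, edgeR adjusted p = 0.00198). Col4a3 was lower throughout, with 0.109 and 0.386, 0.0641 and 0.0950, 0.755 and 0.486, and 1.41 and 1.71 CPM in the same order (-2.90 ± 0.88, adjusted p = 0.0423). With the animal as a block, the interaction calls of Col4a3 (edgeR adjusted p = 0.0511) and Col11a1 (adjusted p = 0.0597) were lost. The call of Col4a3 was also lost without each library in turn but replicate 1 of wild-type FBS, and that of Col11a1 without each but the 2 of wild-type atRA+PKCi. Leaving out 1 library moved Col4a3 between -3.55 and -1.77, the last without replicate 2 of wild-type FBS, and Col11a1 between -8.82 and -3.90, the first without replicate 2 of wild-type atRA+PKCi.

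Between genotypes in FBS, 6 of 30 collagens were higher and 6 lower in Rxra cKO, against 22.3% and 20.5% of all genes, with a median log2 fold change of 0.25. Col8a1 was higher (3.46 ± 0.13, edgeR adjusted p = 4.72e-07), with Col27a1, a fibrillar chain, at 2.11 ± 0.40 and Col6a2, of the beaded filaments, at 2.03 ± 0.41. Col12a1 (-1.35 ± 0.13), Col7a1 (-1.07 ± 0.17), Col4a2 (-0.95 ± 0.16, -0.61 without replicate 1 of wild-type FBS) and Col16a1 (-0.92 ± 0.14) were lower. Col2a1 and Col4a5 were higher by 1.07 and 0.42, calls that were lost without replicate 2 of Rxra cKO FBS (edgeR adjusted p = 0.0565 and 0.0854) and without replicate 2 of wild-type FBS (0.120 and 0.0598), and for Col2a1 also without replicate 1 of Rxra cKO FBS (0.112). Col26a1 was lower (-1.46 ± 0.37, adjusted p = 0.0130), a call lost without replicate 1 of Rxra cKO FBS (0.0616) and of wild-type FBS (0.0505).

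In atRA+PKCi, 11 of 30 were higher and 5 lower in Rxra cKO, against 23.0% and 20.2% of all genes, with a median of 0.71 against 0.00. The genes that were higher included 5 of 10 fibrillar chains, among them Col11a1 (6.34 ± 0.61, edgeR adjusted p = 6.00e-05), with 0 and 4 counts in wild-type and a value of 10.35 without replicate 2 of wild-type atRA+PKCi. The others included Col5a3 (3.11 ± 0.24), Col5a2 (3.08 ± 0.54) and Col5a1 (2.86 ± 0.24). Col5a2 had 2 and 7 counts in wild-type atRA+PKCi and ranged from 2.49 to 4.19 with 1 library left out. Col4a3 (4.22 ± 0.61), Col4a4 (3.20 ± 0.34) and Col12a1 (3.02 ± 0.14, adjusted p = 8.64e-07) were also higher. Col20a1 (-1.13 ± 0.21), Col9a3 (-1.06 ± 0.19), Col4a2 (-0.74 ± 0.17), Col4a1 (-0.67 ± 0.15) and Col8a1 (-0.42 ± 0.09) were lower, the last not without replicate 1 of Rxra cKO atRA+PKCi (-0.27, adjusted p = 0.0728). The fibroblast list moved the same way, with 3 of its 5 tested genes higher and none lower, and its part in these differences was not tested. The 4 contrasts share libraries, so their values are not independent.

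Genes that make, fold, cross-link, bind and cut collagen were taken from a list of 50, of which 39 were tested. In wild-type, 9 rose and 19 fell in atRA+PKCi, against 27.2% and 26.6% of all genes, with a median log2 fold change of -0.37 against 0.03. Mmp13, a collagenase, went from 2210 and 2390 CPM to 0.641 and 0.412 CPM (-12.08 ± 0.21, edgeR adjusted p = 6.16e-09). Tll1, which cuts procollagen ends, fell by 5.96 and Mmp9, a gelatinase, by 4.57 on the log2 scale. Timp3, a protease inhibitor, rose from 2.74 and 1.97 CPM to 12.8 and 11.9 CPM (2.39 ± 0.19), and P3h3, a prolyl hydroxylase, rose by 2.04 ± 0.20. The collagen receptors had 4 falls and no rise among 7 tested, beside the same shares of all genes, with Itga2 falling from 118 and 109 CPM to 5.26 and 4.40 CPM (-4.55 ± 0.10). In Rxra cKO, 10 of the 39 rose and 11 fell, near the 20.8% and 22.2% of all genes. Between genotypes in atRA+PKCi 19 were higher and 6 lower, against 23.0% and 20.2%, with Mmp13 (3.36 ± 0.25), Itga1 (3.10 ± 0.54) and Mmp9 (3.00 ± 0.28) highest. The interaction was called for 2 higher and 16 lower, against 11.3% and 13.3%.

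In back skin the collagens divided by cell class. The cells had been sorted as negative for CD45, CD31, CD140a and CD117, markers of immune, endothelial, fibroblast and melanocyte or mast cells, yet clusters with markers of these types were present, and the sort can set their numbers and which of their cells remain. After filters, 14458 and 13915 cells were kept, of which 932 and 646 were called doublets and removed, and 13 classes could be named from markers that held no collagen. The 2 skin matrices shared 62 barcodes. Collagens took 5.24% and 6.50% of UMIs (counted RNA molecules) in dermal fibroblasts and 1.161% and 1.226% in the dermal papilla. In immune cells, not a main source of collagen, they took 0.537% and 0.790%. These matrices were deposited before free RNA was removed, so a level at or below the immune class was taken as not told apart from background. The outer root sheath (0.358% and 0.515%), the follicle layer that holds HFSCs, and the hair matrix (0.198% and 0.327%) lay under it in total. Unnamed clusters held 5001 and 3968 cells, with 2.37% and 2.75% of their UMIs in collagens, and enter no class value. Some fibroblast clusters were split unevenly between the mice (281 and 1985 cells, 1362 and 101 cells), while the others were nearer in size. The fibroblast values of the 2 mice therefore rest on different mixes of clusters. All values are per mouse and a description, since classes come from the same cells.

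Col3a1, Col1a2 and Col1a1 led in fibroblasts with 17798 and 22698, 15150 and 19302, and 11440 and 14507 CPM, and Col5a2 (1165 and 1643), Col14a1 (1220 and 1079), Col5a1 (995 and 811) and Col6a3 (980 and 945 CPM) followed. Col1a1 reached 1004 and 1790 CPM in the immune class but 449 and 848 CPM in the outer root sheath, so the sheath was not above the immune level. It was at 396 and 733 CPM in the hair matrix. Immune cells held fewer UMIs (medians of 4565 and 5212) than sheath cells (7123.5 and 8471). The level of free RNA in the sheath itself is therefore not known, and its own Col1a1 cannot be told from it. Col4a1 and Col4a2 were highest in contractile mural and sheath cells (1364 and 1456, 867 and 961 CPM) and in endothelium (1309 and 1293, 855 and 852 CPM). Col23a1, a membrane collagen, was highest in the dermal papilla with 712 and 952 CPM, as was Col15a1 with 540 and 506 CPM. Col11a1 stood at 191 and 184 CPM there, at 5.09 and 6.66 CPM in fibroblasts and at 16.5 and 159 CPM in Schwann cells. Schwann cells (26 and 60 cells) led in Col28a1 (176 and 94.7 CPM) and Col20a1 (165 and 235 CPM).

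In the outer root sheath (644 and 841 cells), 16 of 43 collagens were above the immune level in both mice. The share over all genes was not computed, so this count stands without a background. It has no floor either, and includes Col10a1 with 1 UMI in the sheath of each mouse. Col18a1 stood at 401 and 441 CPM against 19.4 and 63.0, Col12a1 at 189 and 284 against 14.5 and 35.8, and Col16a1 at 212 and 225 against 36.3 and 42.4. These were the highest values of Col18a1, Col12a1 and Col16a1 in any named class. Col4a5 (98.2 and 125 CPM) and its neighbour Col4a6 (76.7 and 119 CPM) were also highest there, with companion layer and suprabasal epidermis next. Col7a1 stood at 21.7 and 12.0 CPM in the sheath and 27.7 and 30.8 CPM in suprabasal epidermis. Within the sheath the cluster led by Aqp3 and Krt15 (84 and 56 cells) had 176 and 118 CPM and the other clusters 3.60 to 6.80 CPM. Krt15 was not on the marker list of the sheath but on that of upper hair follicle and basal epidermis. The name of this cluster is therefore uncertain, and it was kept in all sheath values.

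Some collagens were strongest in clusters that could not be named. The cluster led by Il17b, with Acta2 and Cnn1 among its leading genes, had Col9a1 (138 and 86.2 CPM), Col9a2 (121 and 91.7 CPM) and Col9a3 (197 and 125 CPM), against at most 12.2 CPM of Col9a3 in any named class. The cluster led by Adamts18, with Stmn2 and Lrrc15, had the highest Col11a1, 879 and 915 CPM. A cluster led by Cdkn1c and H19 (668 and 920 cells) gave 5.31% and 5.45% of its UMIs to collagens.

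**Figure D3:**
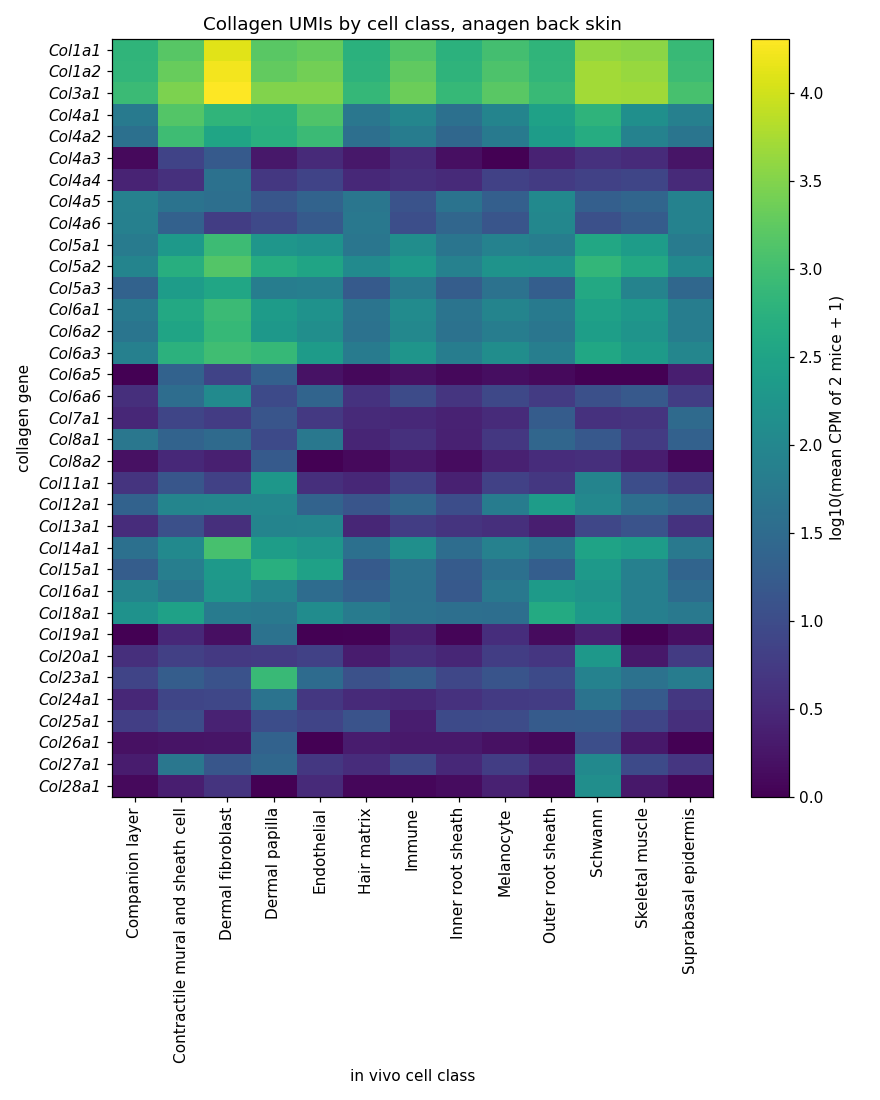
Mean CPM of 2 mice, as log10(CPM + 1), for collagens reaching 10 CPM in a class (rows) in 13 named classes of anagen back skin (columns). Col1a1, Col1a2 and Col3a1 are brightest in dermal fibroblasts, Col4a1 and Col4a2 in mural and endothelial cells, and Col12a1, Col16a1 and Col18a1 in the outer root sheath.

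In tagged cultures, 222 and 78 singly tagged cells passed, and no UMI of Col1a1, Col1a2 or Col3a1 was counted among 6797449 and 2234339 UMIs. Collagens took 0.0391% and 0.0484% of UMIs. Only 5 of 43 passed the filter on low counts (Col18a1, Col12a1, Col7a1, Col4a3 and Col4a4). Sums of at least 5 cells were used, which left out FBS with 0 cells and atRA+PKCi with 2 and 1. Several sums that were used were small, with 5 and 10 cells in B-27, 5 and 6 in Rspo, and 5 in Rspo+BMP2/4+RARi of mouse 1. Against the B-27 cultures, BMP2/4 cultures had 0 collagens called (adjusted p under 0.01 with log2 fold change above 1 or below -1), against 0.431% of 6265 genes higher and 5.28% lower. At an unadjusted edgeR p under 0.05 stood 3 of the 5, beside 1507 of the 6265 genes. DESeq2 called 0 of the 5, and 395 of all genes. Col4a4 stood at 15.1 and 0 CPM in B-27 and at 119 and 96.7 CPM in BMP2/4 (3.83 ± 1.00, edgeR adjusted p = 0.0152). The B-27 value rested on 3 UMIs in 5 cells and 0 in 10, and leaving out 1 sum moved the difference between 2.89 and 9.57, the last without B-27 of mouse 1. It was called with the mouse as a block (edgeR adjusted p = 0.00453). Col4a3 had 0 UMIs in B-27 and 107 and 13 UMIs in BMP2/4 (adjusted p = 0.0487). In BMP2/4, 65 of 113 and 8 of 13 cells held a Col4a4 UMI, and 11.4% and 54.2% of those UMIs came from 1 cell. The BMP2/4 cultures also held atRA+PKCi and the B-27 cultures did not, so the parts of these cannot be told apart. In atRA+PKCi alone, the 2 cells of mouse 1 held 6 UMIs of Col4a3 and 2 of Col4a4. The 1 cell of mouse 2 held 0 of each.

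Adding Rspo to BMP2/4 called 0 of the 5 by edgeR, with 0 at an unadjusted p under 0.05 and 0 by DESeq2, and over all genes 0.0% were called higher and 0.0% lower. Adding RARi to Rspo+BMP2/4 gave 0, 0 and 0 in the same way, with 0.0% of genes called in each direction. Col4a4 in Rspo+BMP2/4 lay at 42.5 and 158 CPM and with RARi at 8.13 and 77.1 CPM, lower in both mice, while the groups overlapped across mice (-0.81 ± 0.65, edgeR adjusted p = 0.959, and -0.96 ± 0.63, adjusted p = 0.957, with the mouse as a block). Col4a3 went from 14.4 and 56.8 CPM to 0 and 21.0 CPM (-1.25 ± 0.78 with the block, edgeR adjusted p = 0.957). With RARi, the values of mouse 1 rested on 5 cells, with 1 UMI of Col4a4 and 0 of Col4a3.

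**Figure D4:**
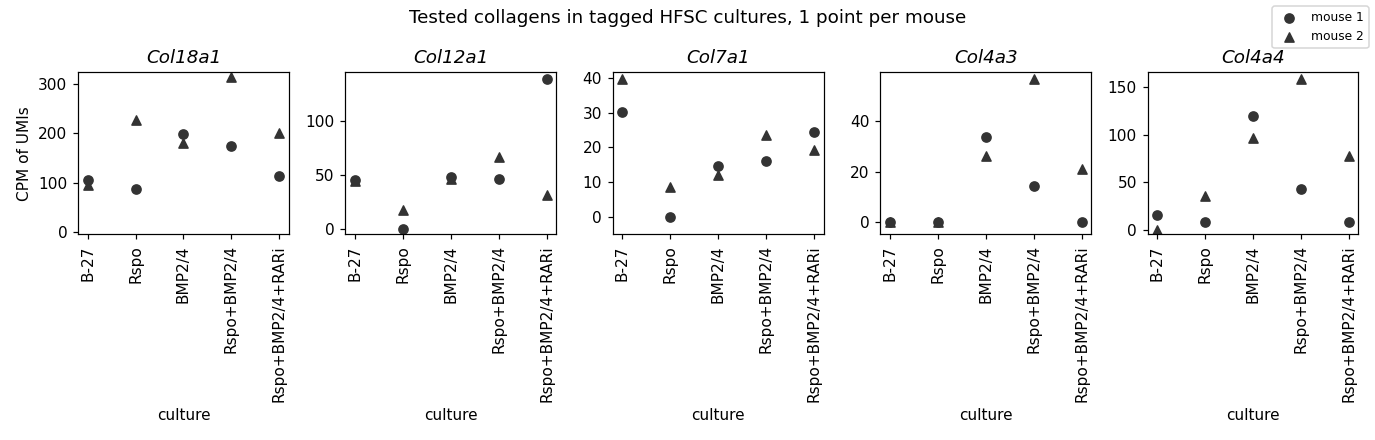
CPM of UMIs of the 5 tested collagens in tagged HFSC cultures, with circles for mouse 1 and triangles for mouse 2. Col4a3 and Col4a4 are at or near 0 in B-27 and higher in both mice in BMP2/4, which also held atRA+PKCi.

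Compared with the outer root sheath of the same mice, cultured HFSCs as a whole had 4 of 31 tested collagens higher and 22 lower, against 15.6% and 21.6% of 13119 genes, with a median log2 fold change of -4.59 (-4.18 with genes at 0 in culture set to their bound) against -0.09. Of the 22, 9 were above the immune level in the sheath of both mice (Col12a1, Col16a1, Col25a1, Col4a1, Col4a2, Col4a5, Col4a6, Col6a4 and Col8a1), and the other 13, Col1a1 and Col3a1 among them, were not. Col4a1 stood at 6.12 and 6.65 CPM in culture and 228 and 288 CPM in the sheath (-5.35 ± 0.29, edgeR adjusted p = 4.69e-15), Col16a1 at 6.64 and 7.13 against 195 and 197 CPM (-4.84 ± 0.27), and Col12a1 at 49.5 and 47.5 against 174 and 249 CPM (-2.12 ± 0.24). The sum of cultured cells pools media. Cultures with BMP2/4 or Rspo+BMP2/4 gave 205 of 222 and 40 of 78 of its cells, and 474 of 481 and 162 of 210 of its Col4a4 UMIs, while Col4a4 was low and Col4a3 at 0 in B-27. Higher in this sum were Col4a4, at 84.1 and 99.8 against 4.50 and 3.88 CPM (4.46 ± 0.26, adjusted p = 1.64e-14), Col4a3 (4.30 ± 0.33), Col9a3 (3.45 ± 0.55) and Col20a1 (1.77 ± 0.35). Col18a1 stood at -0.85 (SE 0.23, edgeR adjusted p = 0.00294), inside the fold limit. Col7a1 was at 16.3 and 20.4 CPM in culture and 19.9 and 10.5 CPM in the sheath (0.27 ± 0.28, edgeR adjusted p = 0.436). This sheath level pools the cluster led by Aqp3 and Krt15 with others that were far lower, and the difference without that cluster was not computed. Culture and skin were separate libraries, and library and tissue cannot be told apart.

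**Figure D5:**
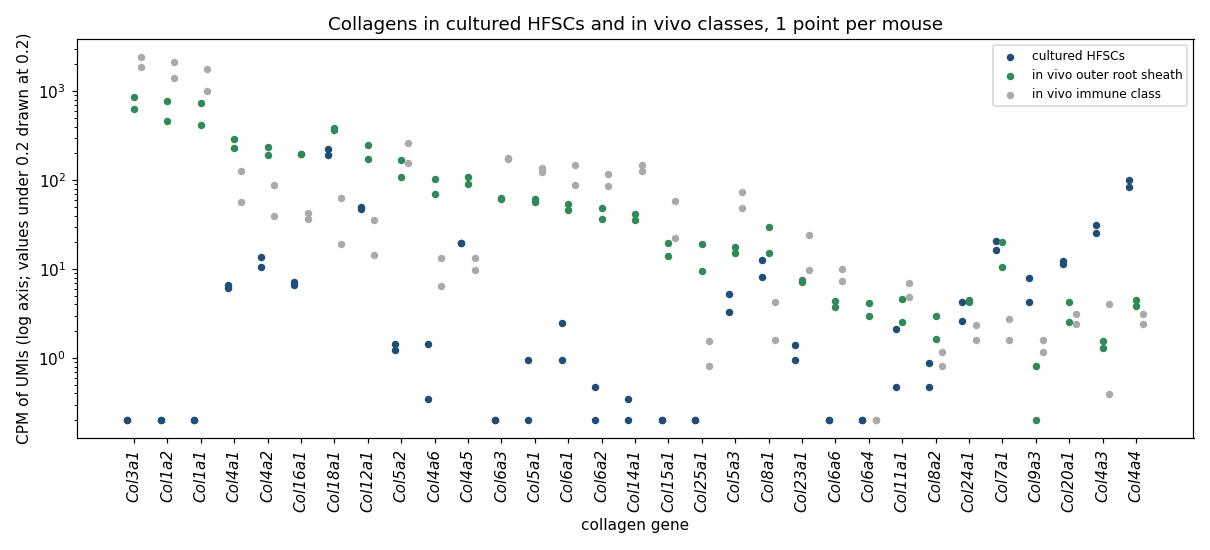
CPM (log axis) of 31 tested collagens in cultured HFSCs, in vivo outer root sheath and the immune class, 1 point per mouse, with the first pair scaled by TMM and the immune class by its total. Col1a1, Col1a2 and Col3a1 have no UMI in culture, and Col4a3 and Col4a4 are highest in culture.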

How the data were processed

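The authors made estimated counts per gene from bulk RNA-seq with Salmon 1.4.0 and mm10, and UMI counts per cell with Cell Ranger (7.0.0 in the matrix headers, 7.0.1 in the submitters' processing notes). Both were deposited without normalization, the single cell matrices before removal of free RNA and doublets. A table of the same bulk counts scaled by the authors was not used. Whether counting used strand is not given in the sources used here, so the overlapping ends of Col4a1 and Col4a2 are uncertain. Estimated counts were rounded and tested with edgeR 4.0.16 (quasi-likelihood, TMM, filter on low counts, Benjamini-Hochberg adjusted p under 0.05), all 8 libraries in 1 fit. That fit had no replicate block, which was run as an alternative. SE is the log2 fold change divided by the root of F. UMI sums per mouse and culture were tested alike, with calls at adjusted p under 0.01 and log2 fold change above 1 or below -1. DESeq2 1.42.0 was an alternative. The steps were tested on simulated data.

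Cells with at least 500 genes, 1000 UMIs and under 10% mitochondrial UMIs were clustered with scanpy 1.11.5, called doublets were removed, and clusters were named from marker genes. The rule that a name needs most of its markers detected was added after seeing the data. Hashtags were called with Seurat 5.3.0. The groups came from the labels. Up to 5 collagens per direction and comparison were named, by fold change among those called with at least 1 CPM in a group, beside a set of common skin collagens. Genes named for single clusters, and collagens outside the rule, were chosen after their values were seen. The members and gene lists were chosen with earlier results of these data known. The labels give the mouse of each bulk culture as 1 or 2, the same in both media, so media are paired by animal within a genotype (correlation of deviations 0.135 in wild-type and -0.000821 in Rxra cKO). Between genotypes the numbers pair nothing.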

Additional observations from a re-analysis of the deposited data

Results flagged for a closer look

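The medium effect differed between wild-type and the libraries labelled Rxra cKO, by the interaction term of the edgeR fit, for 10 collagens. The difference, wild-type minus Rxra cKO on the log2 scale, was 3.88 for Col8a1 and 1.52 for Col20a1. It was -4.80 for Col11a1 (-8.82 to -3.90 with 1 library left out), -4.37 for Col12a1, -3.21 for Col5a3, -3.03 for Col4a4, -2.90 for Col4a3, -2.27 for Col5a1, -1.49 for Col7a1 and -0.97 for Col16a1. Rxra RNA was lower in Rxra cKO in FBS and not in atRA+PKCi, and its part in these differences was not tested. Groups held 2 libraries, so no library could be tested as standing apart.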

How the results depend on the processing

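With the replicate block, Col4a3 and Col11a1 lost their interaction calls, and Col18a1 gained a call in the Rxra cKO medium effect (edgeR adjusted p = 0.0425). Col4a3 from BMP2/4 to Rspo+BMP2/4 turned to -0.24, and 1 collagen was higher in BMP2/4 than B-27. Between genotypes the block joined mice by number, which pairs nothing. The loss of the Col4a6 call in FBS there (edgeR adjusted p = 0.0503) therefore does not bear on that call. Col14a1 had 0 counts in every FBS library, so its value of -0.0063 between genotypes there holds no difference. The block changed no other call. With calls limited to adjusted p under 0.01 and log2 fold change above 1 or below -1, 5 collagens fell in wild-type and 1 in Rxra cKO, 3 were higher and 2 lower between genotypes in FBS, 7 and 2 in atRA+PKCi, and 1 and 5 in the interaction. With only the 4 libraries compared, 5 rose in wild-type. The interaction was higher for 1 by DESeq2 and 4 with no filter. Against B-27, BMP2/4 had 2 higher with no filter and 2 at adjusted p under 0.05, and Col12a1 turned to -0.10 with a hashtag share of at least 70%. With stricter cell filters, which left 29 of 222 and 12 of 78 cultured cells, 2 were higher in culture than sheath. The dermal papilla share was 1.45% with no doublets removed, 1.27% with stricter filters and 1.59% at the higher resolution, and the suprabasal share 0.813% with no doublets removed.

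Leaving out 1 library at a time gave 1 to 6 falls in Rxra cKO, 3 to 6 higher between genotypes in FBS, 2 to 4 higher in the interaction and 0 to 1 higher in BMP2/4. In the wild-type medium effect Col1a1 ranged from -2.72 to 0.30, Col18a1 from -0.21 to 0.19, Col6a3 from -0.53 to 1.45 and Col3a1 from -2.52 to 0.00046. In Rxra cKO Col16a1 ranged from -0.092 to 0.26, Col1a2 from -0.086 to 0.83 and Col6a1 from -0.064 to 0.49. Between genotypes in FBS Col6a3 ranged from -0.60 to 1.38, Col1a1 from -1.65 to 0.26 and Col18a1 from -0.33 to 0.065, and in atRA+PKCi Col1a2 from -0.56 to 2.56, Col1a1 from -0.0012 to 2.49 and Col3a1 from -0.32 to 2.18. In the interaction Col6a1 ranged from -0.15 to 0.42, Col4a1 from -0.45 to 0.12, Col4a2 from -0.49 to 0.13, Col4a5 from -0.20 to 0.078, Col6a3 from -1.28 to 0.70 and Col6a2 from -0.11 to 0.98. Adding Rspo, Col4a4 ranged from -1.36 to 0.53, Col12a1 from -0.048 to 0.48 and Col18a1 from -0.13 to 0.72, and adding RARi, Col12a1 from -0.79 to 1.22 and Col4a4 from -3.63 to 0.33. Col7a1 in culture against sheath ranged from -0.17 to 0.77. None of these collagens was called in the full fit of its comparison, and the cause was not tested. Leaving out a mouse in the tagged cultures was not run, since no residual degrees of freedom remain, nor the stricter cell filter there, with too few cells.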
